A study of Sus scrofa with 6 samples.

Results

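Genes for the proteins that carry ions and water across kidney epithelia were followed in pig renal medulla 24 hours after cardiopulmonary bypass (CPB). They were picked by gene symbol, as probe sets whose single symbol in the array annotation named a subunit of the sodium, calcium or proton pump, a potassium, chloride, calcium, TRP or epithelial sodium channel, an FXYD protein, a claudin, an aquaporin or a numbered carbonic anhydrase. This gave 86 of 6765 genes with such a symbol, in 13 families. They were measured by 125 probe sets, out of 23999 that were not array controls, of which 10069 carried a single symbol. The letters of the rule also took in a few relatives that are not channels, namely the claudin domain protein CLDND1, the potassium channel interacting proteins of the KCNIP genes, and TRPC4AP, a partner of a TRP channel. Of the 86 genes, 30 had more than 1 probe set.

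The tissue came from pigs labelled White-Landrace crossbred, which the methods call Large White-Landrace and describe as adult females. The CPB group (n = 3) had 2.5 hours of bypass under general anaesthesia. The Sham group (n = 3) had 2.5 hours of general anaesthesia without bypass, together with neck dissection and heparin per the methods. Each pig gave 1 Affymetrix porcine array, and the tissue was cut from the outer medulla. Values are RMA intensities, a background-corrected and jointly normalised brightness of the probes for a transcript, and differences are the mean log2 intensity in CPB minus that in Sham, with a standard error (SE) from limma, a linear model that shares information on the spread over all probe sets. Brightness depends on the probes, so no gene's level is set against another's.

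The nephron reabsorbs filtrate segment by segment. The sodium pump of the basolateral membrane drives the process, and each segment adds its own apical channels, its own claudins, which make the space between cells selective for particular ions, and its own aquaporins, which set water permeability. In the medulla the thick ascending limb takes up salt without water and recycles potassium through the channel KCNJ1, the collecting duct principal cells take up sodium through the epithelial sodium channel and water through aquaporins, and the intercalated cells secrete acid with a proton pump. The same proton pump, in other subunit versions, acidifies lysosomes and endosomes in every cell.

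Across the families, no probe set met the study's threshold of an unadjusted p under 0.05 and at least a 1.6-fold difference (0 of 125, against 0.304% of all 23999 probe sets). At an unadjusted p under 0.05 alone there were 3 members, or 2.4%, against 1.4% of all probe sets. No member passed a Benjamini-Hochberg adjusted p of 0.05 over all probe sets (limma, smallest adjusted p 0.995), and neither did any other probe set (0%). Leaving out 1 pig at a time moved the count at an unadjusted p under 0.05 to 21 without Sham 2 (16.8%, against 9.24% of all probe sets), 5 without CPB 2 (4%, against 5.03%), 3 without Sham 3 (2.4%, against 0.675%), 1 without CPB 3 (0.8%, against 0.713%), 0 without CPB 1 (against 0.829%) and 0 without Sham 1 (against 0.688%). With the methods' t-test, run here with equal variances, 0 members met the threshold (against 0.125% of all probe sets on log2 and 0.108% on linear values). On log2 and on linear values 3 members had an unadjusted p under 0.05 (2.4%, against 2.08% of all probe sets on either scale). These were KCNJ2, the dimmer probe set of KCNN3 and ATP6V0C, so that only KCNJ2 was called by both tests. The intensities of the 3 CPB and the 3 Sham pigs did not overlap in 8 members, or 6.4%, against 5.27% of all probe sets, and CPB was the higher group in 7 of these (5.6%, against 3.38%) and the lower in 1 (0.8%, against 1.89%). With 1 probe set per gene 4 of 86 members were without overlap (4.65%, against 5.37% of all 6765 genes). An exact permutation test of 3 pigs against 3 cannot give a two-sided p below 0.1.

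The members leaned to the CPB side more often than the array did. The mean was higher in CPB for 88 of 125 (70.4%), against 55.9% of all probe sets, with a median log2 difference of 0.083, against 0.027 over all. The mean was higher in CPB for 32 of 40 potassium channel probe sets (median 0.14), 18 of 21 proton pump probe sets (0.12), all 5 of the chloride channels (0.11) and 4 of 5 of the calcium channels (0.093), and it was lower for both intracellular chloride channel probe sets (-0.74) and 8 of 13 claudin probe sets (-0.30). Without CLDND1, whose 3 probe sets were all lower in CPB, the claudins stood at 5 of 10 lower and a median of -0.023. The calcium pumps (0.087), the sodium pump (0.0067) and the aquaporins (-0.0045, or 0.029 with 1 probe set per gene) had medians nearer 0. The 95% interval of the difference lay inside 1.6-fold in both directions for 80 of the 125 probe sets, among them 34 of 40 for potassium channels, 9 of 11 for calcium pumps and 10 of 21 for the proton pump. For the other 45 a difference of that size is not excluded by the interval.

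**Figure D1:**
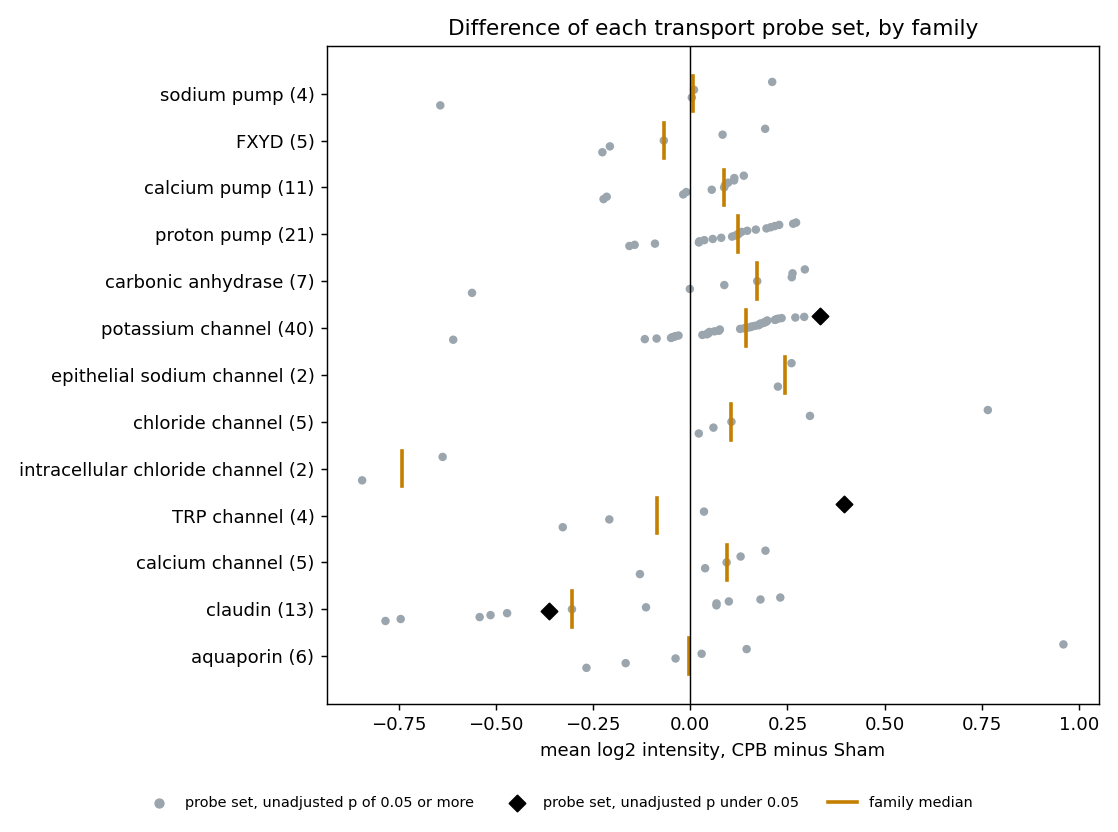
Difference in mean log2 intensity (CPB minus Sham, horizontal axis) of the 125 probe sets, in rows by family with the number of probe sets in brackets. Each point is 1 probe set, the black diamonds are the 3 with an unadjusted p under 0.05 (KCNJ2, TRPV6 and CLDND1), and the vertical bars are family medians, which run between -0.74 for the intracellular chloride channels and 0.24 for the epithelial sodium channel.

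TRPV6, an apical calcium channel of the distal nephron, had intensities of 93.0, 84.0 and 95.6 in the CPB pigs, against 65.3, 83.6 and 60.3 in the Sham pigs. All 3 CPB pigs lay above all 3 Sham pigs, although CPB 2 and Sham 2 differed by less than 1 unit. The log2 difference was 0.39 (SE 0.16, unadjusted p = 0.0451, adjusted p = 0.995, limma). KCNJ2, an inward rectifier that holds the resting potential, read 22.8, 24.4 and 21.3 in CPB, against 17.5, 18.5 and 18.3 in Sham. It was higher by 0.33 (SE 0.11, unadjusted p = 0.0207), and its brightness placed it in the dimmest 25% of all probe sets. CLDND1, a 4-span membrane protein related to the claudins, read 46.98, 47.6 and 44.97 in CPB, against 71.4, 55.9 and 53.7 in Sham, on 1 of its 3 probe sets. The difference was -0.36 (SE 0.14, unadjusted p = 0.0439). On its brightest probe set CLDND1 read 386, 398 and 457 in CPB, against 527, 453 and 556 in Sham, a difference of -0.30 (SE 0.13) with a single crossing between CPB 3 and Sham 2. Its remaining probe set differed by -0.47 (SE 0.42). ATP6V0C, the proteolipid ring subunit of the proton pump, read 3109, 2964 and 3172 in CPB, against 2418, 2907 and 2397 in Sham. The groups did not overlap and the difference was 0.26 (SE 0.12, unadjusted p = 0.0741 with limma). The methods' t-test gave ATP6V0C an unadjusted p of 0.0498 on log2 and 0.046 on linear values. In the 6 fits that leave out 1 pig, the unadjusted p stayed under 0.05 in 3 for KCNJ2, in 2 for CLDND1 and in 1 for TRPV6.

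**Figure D2:**
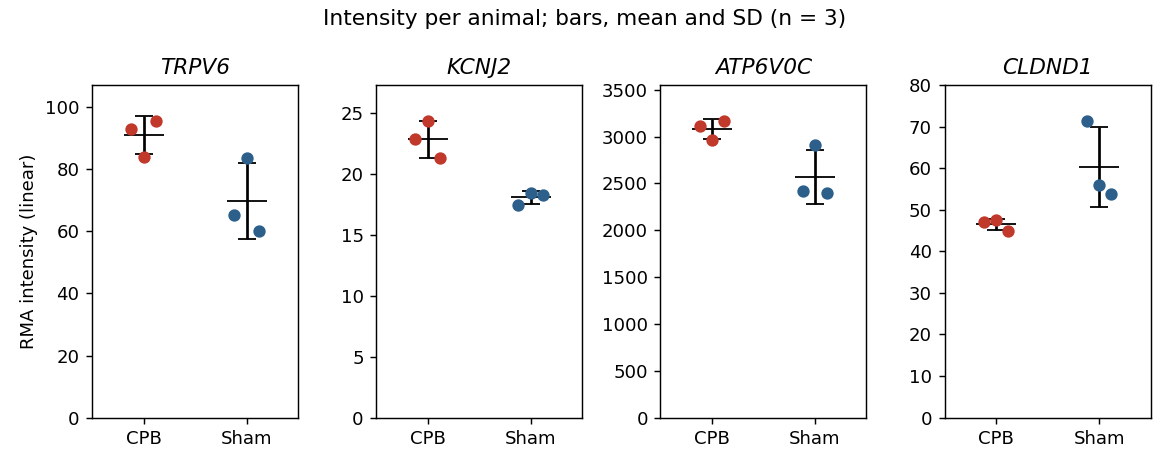
RMA intensity (linear, vertical axis from 0) of TRPV6, KCNJ2, ATP6V0C and CLDND1 in each CPB pig (red) and Sham pig (blue), with horizontal bars and whiskers for the mean and SD of n = 3. CPB averaged 90.9 ± 6.09 and Sham 69.7 ± 12.3 for TRPV6, and in every panel the 3 CPB pigs lie on 1 side of the 3 Sham pigs, by the narrowest margin in TRPV6 and ATP6V0C.

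The remaining members without overlap, all higher in CPB, were single probe sets of KCNE1, KCNJ5, KCNN3 and KCNQ1, and 3 of these 4 were not the brightest probe set of their gene. KCNE1, the accessory subunit of KCNQ1, stood at 50.1, 49.5 and 49.9 in CPB, against 38.7, 48.9 and 40.2 in Sham. KCNQ1 was measured by 4 probe sets, with differences between 0.14 and 0.23 (unadjusted p between 0.152 and 0.356). KCNJ5 shows how far probe sets of a gene can part. The brighter probe set of this G protein gated inward rectifier read 151, 149 and 138 in CPB, against 277, 147 and 273 in Sham, a difference of -0.61 (SE 0.26), while the dimmer one read 67.5, 70.5 and 80.0 in CPB, against 67.4, 60.2 and 65.2 in Sham, a difference of 0.18 (SE 0.12). Of the 30 genes with several probe sets, 19 had the same direction on all of them and 11 did not, and KCNJ5 was the only gene with a gap above 0.5.

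The potassium channels were otherwise the steadiest large family. The median SD over the 6 pigs was 0.16 on the log2 scale, against 0.21 over all probe sets, and 15 of the 40 probe sets lay in the dimmest 25% of the array. The median SD of all probe sets in that dimmest 25% was 0.15, against 0.25 in the brighter ones. The comparison was not matched for brightness, so the small spread is not read as a trait of the family. KCNJ1, the potassium channel of the thick ascending limb and principal cells known as ROMK, read 1249, 2127 and 835 in CPB, against 2219, 1250.5 and 881 in Sham. The group ranges nearly coincide, and the difference was -0.047 (SE 0.46). KCNE3, an accessory subunit of KCNQ1 and other channels, read 38.4, 41.1 and 37.4 in CPB, against 27.7, 21.8 and 70.2 in Sham, so the spread lay in the Sham group. In vessels, KCNJ8 is the pore of a nucleotide-gated channel of smooth muscle and KCNMB1 a subunit of the calcium-activated channel there. KCNJ8 read 60.3, 51.8 and 53.0 in CPB, against 62.3, 55.4 and 61.3 in Sham (difference -0.12, SE 0.12), and KCNMB1 read 190.2, 193 and 195 in CPB, against 154, 197 and 174 in Sham (0.15, SE 0.13).

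For the sodium pump, only genes of the beta subunit family carried a matching symbol. Of these, ATP1B1 and ATP1B3 encode subunits that bring the pump to the membrane. ATP1B1, the main beta subunit of kidney tubules, read 6207, 6520.1 and 4570.0 in CPB, against 6657, 5522 and 4934 in Sham. The difference was 0.0095 (SE 0.19, 95% interval -0.46 to 0.48), and the second probe set gave 0.0039 (SE 0.26). ATP1B3, a more widely expressed beta subunit, read 675, 1209.5 and 674 in CPB, against 1625, 653 and 1976 in Sham. CPB 2 and Sham 2 each stood apart from the other pigs of their own group, in opposite directions, and the difference was -0.64 (SE 0.47). Without Sham 2 it was -1.13 (SE 0.31, unadjusted p = 0.017, adjusted p = 0.533, limma), and leaving out any other pig gave -0.33 (without Sham 3) to -0.92 (without CPB 2). FXYD2, the gamma subunit that tunes the pump in the tubule, read 4518, 3449.6 and 4449.8 in CPB, against 3638, 4301 and 2969 in Sham (difference 0.19, SE 0.19). FXYD6, a family member best known from the nervous system and inner ear, read 371, 880.3 and 342 in CPB, against 655, 301 and 654 in Sham, the same high and low pigs as ATP1B3. FXYD5, which loosens epithelial adhesion, read 113, 197 and 99.7 in CPB, against 183, 145 and 128 in Sham (-0.21, SE 0.29), and FXYD7 differed by -0.23 (SE 0.17). The third beta subunit, ATP1B4, differed by 0.21 (SE 0.13).

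The proton pump, or V-ATPase, has a cytosolic V1 sector that splits ATP and a membrane V0 sector that passes protons. It was the most completely covered assembly, with 16 genes, and 14 of these had a higher mean in CPB. None passed an unadjusted p of 0.05 with limma, and ATP6V0C did with the methods' t-test. The V0 subunit ATP6V0E1 read 2559.6, 2696 and 2827 in CPB, against 2614, 2391 and 2497 in Sham (0.11, SE 0.11), and ATP6V0D1 differed by 0.13 (SE 0.16). The V1 subunits ATP6V1B2, ATP6V1E1, ATP6V1F, ATP6V1G1 and ATP6V1H differed by 0.036 to 0.20. ATP6V1A, the catalytic subunit of V1, read 641, 179 and 854 in CPB, against 270.5, 471 and 479 in Sham. CPB 2 was the lowest of all 6 pigs while the other CPB pigs were the highest, and the difference was 0.23 (SE 0.61). Without CPB 2 it was 0.91 (SE 0.31, unadjusted p = 0.0291, adjusted p = 0.742, limma), and the direction turned without CPB 3 (-0.22), without Sham 1 (-0.042) and without CPB 1 (-0.0085). A second probe set followed the same order within CPB, at 452, 121 and 833, against 231, 411 and 457 in Sham. ATP6AP2, an accessory subunit also known as the prorenin receptor, read 2164, 735 and 2203 in CPB, against 1291, 1909.9 and 1718 in Sham (-0.091, SE 0.46). The stalk subunits ATP6V1C1 and ATP6V1D kept to that order, with ATP6V1C1 at 1190.3, 732 and 1281 in CPB, against 733, 1221 and 708 in Sham, and ATP6V1D at 1003, 562 and 1129 in CPB, against 633, 1088 and 703 in Sham. In all, CPB 2 was the lowest CPB pig for 13 of the 16 genes and Sham 2 the highest Sham pig for 13 of the 16.

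**Figure D3:**
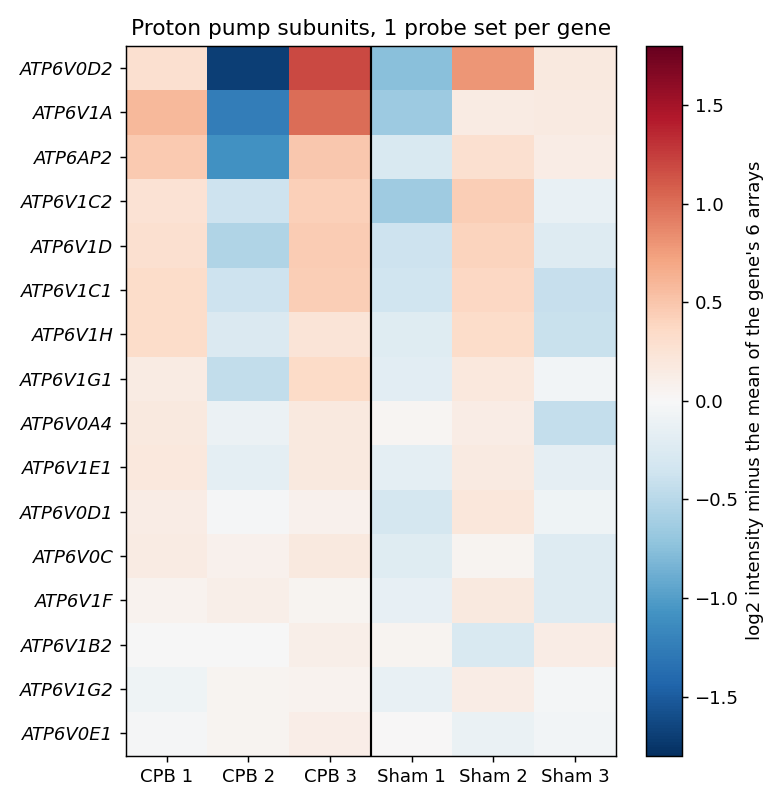
Log2 intensity of the 16 proton pump genes on each array, 1 probe set per gene, minus the mean of that gene's 6 arrays (colour scale, red above and blue below the mean). Rows run with the widest spread at the top, columns are pigs, and the black line parts CPB from Sham. CPB 2 and Sham 1 are blue in the upper rows while CPB 1, CPB 3 and Sham 2 are red, and the lower rows are pale in all pigs.

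Subunits that intercalated cells use for their plasma membrane pump showed the same pattern in part. ATP6V0D2 read 161, 40.6 and 299 in CPB, against 77.9, 227 and 148 in Sham, a difference of -0.14 (SE 0.79) over a 7.37-fold range. ATP6V1C2 read 171, 109.9 and 192 in CPB, against 91.6, 194 and 129 in Sham (0.22, SE 0.34). ATP6V0A4, the kidney form of the large V0 subunit, was steadier, at 269.5, 223 and 269 in CPB, against 245, 263 and 177 in Sham (0.17, SE 0.19). Carbonic anhydrases supply the protons and bicarbonate that such cells move. CA12, an extracellular membrane form, read 70.3, 288 and 95.01 in CPB, against 319, 114 and 170.1 in Sham (-0.56, SE 0.62). Without CPB 2 the difference was -1.17 (SE 0.45, unadjusted p = 0.045, adjusted p = 0.742, limma), against -0.15 without CPB 1 and -0.16 without Sham 1. CA9, a membrane form induced by low oxygen, read 91.5, 147 and 97.5 in CPB, against 106, 83.8 and 85.3 in Sham on its brightest probe set. Without CPB 2 the difference of that probe set was 0.049. The 3 probe sets of CA9 all had a higher mean in CPB, by 0.087 to 0.26. They did not follow each other over the pigs, with a lowest correlation of -0.58, and the dimmest read only 6.2 to 7.6. CA3, a muscle and fat form, was higher by 0.29 (SE 0.24) on its brighter probe set.

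Both measured subunits of the epithelial sodium channel had a higher mean in CPB with overlapping groups. SCNN1B, the beta subunit, read 174, 118 and 165 in CPB, against 107, 187 and 98.2 in Sham (0.26, SE 0.29). SCNN1A, the alpha subunit, read 44.0, 39.1 and 45.3 in CPB, against 32.8, 43.2 and 34.3 in Sham (0.23, SE 0.15). In both genes CPB 2 was the low pig of its group and Sham 2 the high one. Without Sham 2 the differences were 0.55 for SCNN1B (unadjusted p = 0.0472) and 0.35 for SCNN1A (unadjusted p = 0.0348), both with limma over 5 arrays, and the smallest differences with 1 pig left out were 0.085 for SCNN1B (without Sham 3) and 0.15 for SCNN1A (without Sham 1). Among chloride channels, CLCN2, a plasma membrane channel, read 297, 252 and 281 in CPB, against 178, 310.5 and 201 in Sham (0.31, SE 0.23). Without Sham 2 the CLCN2 difference was 0.55 (unadjusted p = 0.0097, limma), and without Sham 1 it was 0.14. In the limma fit without Sham 2, 16.8% of the members and 9.24% of all probe sets had an unadjusted p under 0.05. No member passed an adjusted p of 0.05 in that fit. CLCN3, an endosomal exchanger, differed by 0.022 (SE 0.15). CLCN5, the endosomal chloride exchanger of proximal tubule that is mutated in Dent disease, read 321, 67.8 and 505 in CPB, against 52.7, 309 and 137 in Sham. The range was 9.58-fold, and the difference of 0.77 had an SE of 0.94.

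The intracellular chloride channel proteins were the family with the most negative median. CLIC2 read 172, 192 and 137 in CPB, against 481, 172 and 316 in Sham, a difference of -0.84 (SE 0.38, unadjusted p = 0.0684). CLIC1 read 312, 511 and 281 in CPB, against 606, 299.9 and 927 in Sham (-0.64, SE 0.45). In both genes Sham 2 lay within the range of the CPB pigs, and the other Sham pigs stood above all 3 CPB pigs. For CLIC1, CPB 2 at 511 lay nearer to Sham 1 at 606 than to the other CPB pigs. Without Sham 2 both met the study's threshold, at -1.24 for CLIC2 (SE 0.25, unadjusted p = 0.00492) and -1.08 for CLIC1 (SE 0.34, unadjusted p = 0.0265), and so did ATP1B3, the brighter probe set of KCNJ5 at -0.91 (SE 0.10, unadjusted p = 0.000413) and CLDN5 at -1.26 (SE 0.38, unadjusted p = 0.0216). With another pig left out the smallest differences were -0.26 for CLIC1 (without Sham 3) and, without Sham 1, -0.50 for CLIC2, -0.46 for KCNJ5 and -0.47 for CLDN5. These 5 of 125 members (4%) stand against 2.92% of all probe sets in the same fit, and their adjusted p was 0.533. Without CPB 2 the members at the threshold were others, AQP11, ATP6V1A and CA12, or 3 of 125 (2.4%), against 2.89% of all probe sets.

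Calcium pumps and channels differed little. ATP2A2, the calcium pump of the endoplasmic reticulum, read 877, 1148 and 754 in CPB, against 969, 709.6 and 873 in Sham on its brightest probe set (0.11, SE 0.20), and its 4 probe sets ran between -0.22 and 0.11. ATP2B1, a pump of the plasma membrane, differed by -0.018 (SE 0.22). ATP2C1, a pump of the Golgi, read 593, 675 and 573 in CPB, against 818, 522 and 839.7 in Sham (-0.22, SE 0.21), again with Sham 2 low in its group, and ATP2C2 differed by 0.087 (SE 0.11). TRPM7, a magnesium and calcium channel joined to a kinase, read 221, 167 and 208 in CPB, against 208, 223 and 256 in Sham (-0.21, SE 0.15). TRPC4AP differed by 0.035 (SE 0.11). Among voltage-gated calcium channel subunits, CACNA2D1 read 64.8, 26.2 and 38.3 in CPB, against 34.6, 41.4 and 30.3 in Sham, and the other 4, among them CACNB3, CACNB4 and CACNG3, differed by -0.13 to 0.13.

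The claudins separated into steady and variable members. CLDN10, which makes the paracellular sodium path of the thick ascending limb, read 1765, 1803 and 1965 in CPB, against 2051, 1748 and 1419 in Sham (0.099, SE 0.16), and CLDN14, an inhibitor of calcium uptake in that segment, read 51.6, 53.3 and 51.9 in CPB, against 45.1, 61.6 and 44.6 in Sham (0.067, SE 0.16). The claudins of the collecting duct varied more. CLDN4 read 325, 818 and 320.1 in CPB, against 633, 339.7 and 1220.5 in Sham (-0.54, SE 0.57), and CLDN7 read 246, 939 and 175 in CPB, against 645, 251 and 730.4 in Sham (-0.51, SE 0.73). CLDN5, the claudin of endothelium, read 81.3, 184 and 99.1 in CPB, against 279, 93.4 and 267 in Sham (-0.75, SE 0.52). CLDN11, best known from myelin and testis, had the widest spread of all 125 probe sets, at 10.5, 112 and 19.5 in CPB, against 155, 9.61 and 79.1 in Sham (-0.78, SE 1.29). In these 4 genes CPB 2 was the highest CPB pig and Sham 2 the lowest Sham pig, an order shared in part by the family, in which CPB 2 was highest of its group in 6 of 10 genes and Sham 2 lowest of its group in 7 of 10.

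Partners of the claudins in the tight junction were looked at from a separate list, of which 4 of 9 genes were measured. OCLN, which encodes occludin, read 406, 831 and 353 in CPB, against 692, 426 and 689 in Sham (-0.26, SE 0.38). MARVELD3, a relative of occludin, read 188, 173 and 206 in CPB, against 115, 154 and 161 in Sham. It was higher in CPB by 0.41 (SE 0.17, unadjusted p = 0.0474, adjusted p = 0.995, limma), with no overlap between the groups, and was the only gene of that list below an unadjusted p of 0.05. TJP1, a scaffold of the junction, differed by 0.14 (SE 0.15).

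The aquaporins differed widely in their spread over the pigs. AQP1, the water channel of proximal tubule, thin descending limb and vasa recta, read 5122, 4465 and 5547 in CPB, against 5515, 5507 and 3932 in Sham on its brighter probe set. The difference was 0.029 (SE 0.18, 95% interval -0.41 to 0.47). The dimmer probe set read 333, 133 and 716 in CPB, against 281, 341 and 470.0 in Sham (-0.17, SE 0.60). AQP3, the basolateral water and glycerol channel of principal cells, read 1079.8, 5437 and 1280.4 in CPB, against 4831, 1048 and 2589.6 in Sham. CPB 2 and Sham 1 had the highest values and the difference of -0.27 (SE 0.80) was smaller than the spread within either group. AQP11, an intracellular aquaporin of proximal tubule, went the other way, at 645, 67.9 and 442 in CPB, against 83.1, 244 and 129.6 in Sham (0.96, SE 0.90). Without CPB 2 the difference was 1.95 (SE 0.48, unadjusted p = 0.00795, adjusted p = 0.742, limma), and leaving out any other pig gave 0.33 (without CPB 1) to 1.37 (without Sham 2). AQP5 read 76.3, 80.3 and 90.8 in CPB, against 60.9, 82.5 and 81.9 in Sham (0.15, SE 0.16), and AQP8 differed by -0.038 (SE 0.15).

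**Figure D4:**
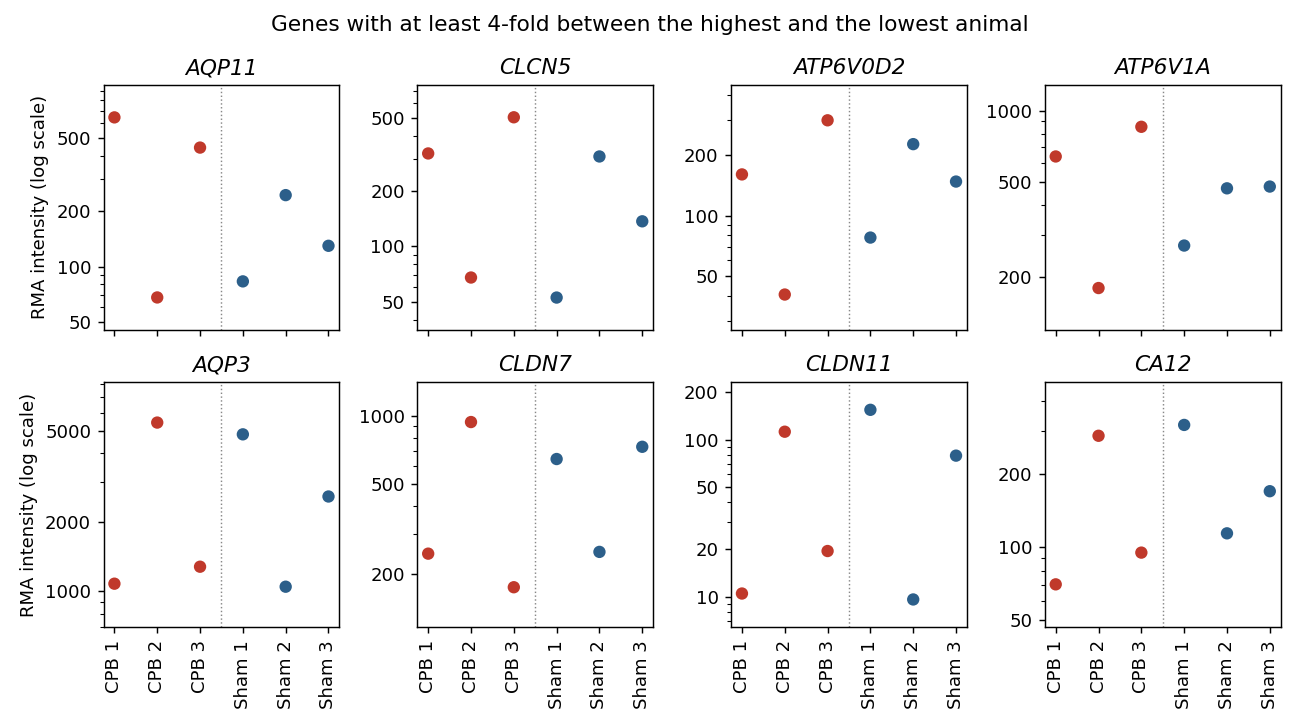
RMA intensity (log scale, vertical axis) in each CPB pig (red) and Sham pig (blue) of the 8 genes whose highest pig was at least 4-fold above the lowest on the brightest probe set. In the upper row CPB 2 is the lowest CPB pig and Sham 1 lies below Sham 2, and in the lower row CPB 2 is the highest CPB pig and Sham 1 lies above Sham 2.

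At least a 4-fold range over the 6 pigs was found in 11 probe sets (8.8%, against 5.6% of all probe sets), and at least a 2-fold range in 26 (20.8%, against 23.6%). CPB 2 was at least 2-fold above both other CPB pigs in 6 members (4.8%, against 4.03%) and at least 2-fold below both in 7 (5.6%, against 4.18%). Sham 2 was at least 2-fold below both other Sham pigs in 7 members (5.6%, against 2.82%) and above both in 1 (0.8%, against 2.32%). The difference between CPB 2 and CPB 3 ran along with that between Sham 1 and Sham 2: over the 125 members Pearson's r was 0.77 and Spearman's rho 0.66, and 99 had the same sign. Over all 23999 probe sets r was 0.74 and rho 0.59. Other pairings, set in the same direction, gave other values. For CPB 2 minus CPB 1 against Sham 1 minus Sham 2, r was 0.80 over the members and 0.69 over all. Against Sham 3 minus Sham 2, the same CPB difference gave 0.57 over the members and 0.54 over all. These correlations are across probe sets, which are not independent replicates, and the arrays were normalised together. The pairings were picked with the order of the pigs known, so a positive r was favoured by the choice.

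Set out by nephron segment, the proximal tubule list had 3 of 7 genes measured (AQP1, AQP11 and CLCN5) and a median difference of 0.77. That median is the value of CLCN5, while AQP1 differed by only 0.029. After subtracting from each gene its mean over the 6 pigs, the list averaged 0.90, -0.996 and 0.97 in CPB 1, CPB 2 and CPB 3, against -0.92, 0.45 and -0.41 in Sham 1, Sham 2 and Sham 3. AQP1 did not share this pattern, at -0.16 in CPB 2 and 0.15 in Sham 1, so the average rests on AQP11 and CLCN5. The intercalated cell list (3 of 7 genes, median 0.17) averaged 0.25, -0.72 and 0.60 in CPB, against -0.45, 0.46 and -0.13 in Sham. The connecting tubule and principal cell list (7 of 13 genes, median -0.047) went the other way on average, at -0.26, 0.53 and -0.38 in CPB, against 0.27, -0.26 and 0.091 in Sham. Within it AQP3, CLDN4, CLDN7 and KCNJ1 had CPB 2 as the highest CPB pig. In SCNN1A, SCNN1B and TRPV6, CPB 2 was instead the lowest CPB pig and Sham 2 the highest Sham pig. In the average of each of these lists CPB 2 stood on the opposite side of the other CPB pigs. The thick ascending limb and distal convoluted tubule list (KCNJ1, CLDN10, CLDN14 and FXYD2, 4 of 11 genes) was steadier on average, with a median of 0.083, and read 0.037, 0.15 and -0.072 in CPB, against 0.17, 0.081 and -0.37 in Sham. Within that list CPB 2 was the highest CPB pig for KCNJ1 and the lowest for FXYD2. The vessel wall list (CLDN5, KCNJ8 and KCNMB1, 3 of 6 genes) had a median of -0.12. The 12 of 17 measured genes of the proton pump found in all cells had a median of 0.13 and averaged 0.22, -0.33 and 0.31 in CPB, against -0.24, 0.16 and -0.12 in Sham. TRPV6 was the only gene of these segment lists with an unadjusted p under 0.05.

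**Figure D5:**
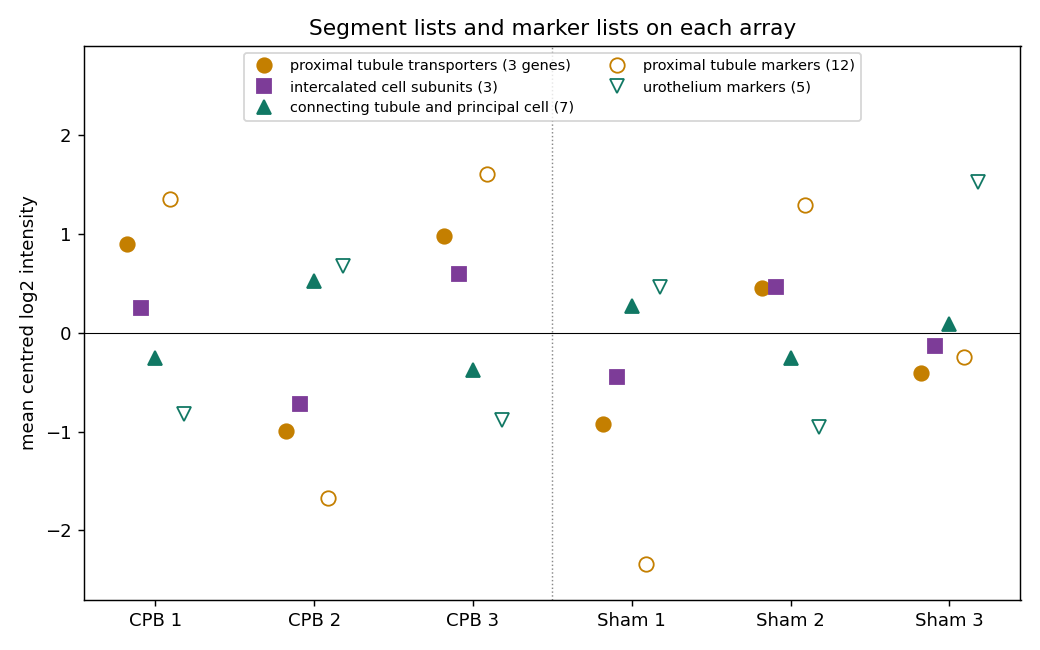
Mean log2 intensity of 3 transport lists (filled symbols) and 2 marker lists (open symbols) on each array, after subtracting from every gene its mean over the pigs. The dotted line parts CPB from Sham. The proximal tubule transporters lie at 0.90, -0.996 and 0.97 in the CPB pigs and the proximal tubule markers at 1.35, -1.67 and 1.61, while urothelium markers lie at -0.82, 0.67 and -0.88.

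The averages of several cell type marker lists moved with these differences. Single markers did not all follow, as the endothelial marker KDR and the smooth muscle marker MYLK were lowest in CPB 2. Of 21 proximal tubule markers 12 were measured, none of them a member, and their centred mean was 1.35, -1.67 and 1.61 in CPB, against -2.34, 1.29 and -0.25 in Sham. Their summed intensity ran between 4389 and 36897 in CPB and between 3068 and 31089 in Sham, and all 12 had a higher mean in CPB without an unadjusted p under 0.05. LRP2, the endocytic receptor megalin, read 2469, 169 and 2740.2 in CPB, against 181, 2389.6 and 899 in Sham. Markers of urothelium, of which 5 of 12 were measured, had the opposite sign in each of the 6 pigs, at -0.82, 0.67 and -0.88 in CPB, against 0.46, -0.95 and 1.53 in Sham. Their summed intensity ran between 638 and 2856 in CPB and between 472 and 3146 in Sham, and UPK3A, a uroplakin, read 55.4, 837 and 56.6 in CPB, against 415, 61.6 and 528 in Sham. Not every uroplakin kept that order. UPK1A read 36.8, 30.3 and 40.35 in CPB, against 40.2, 36.9 and 109 in Sham. UPK2 varied less, at 64.2, 71.5 and 58.4 in CPB, against 63.7, 64.0 and 86.0 in Sham. Smooth muscle markers (5 of 7 measured) averaged -0.60, 0.59 and -0.46 in CPB, against 0.50, -0.40 and 0.38 in Sham, with a summed intensity of 1632 to 5472 in CPB and 1877 to 6877 in Sham. Endothelial markers (7 of 8) averaged -0.26, 0.41 and -0.50 in CPB, against 0.46, -0.19 and 0.080 in Sham, with a summed intensity of 1186 to 2474 in CPB and 1664 to 3062 in Sham. The mean was higher in CPB for 4 of these 7 genes, with a median log2 difference of 0.036. Only 1 met the study's threshold, PECAM1, an adhesion molecule of endothelium, at 533, 752 and 427 in CPB, against 1232, 708 and 927 in Sham. The groups overlapped for PECAM1, and CPB minus Sham was -0.75 (SE 0.29, unadjusted p = 0.0399, adjusted p = 0.995, limma). All 3 principal cell markers were measured, with a summed intensity of 1186 to 3954 in CPB and 1740.2 to 2305 in Sham, but only EGF of the 4 thick ascending limb markers and 0 of the 6 intercalated cell markers. EGF read 1928, 701 and 1739 in CPB, against 1579, 2179 and 660 in Sham. No marker read 0 on this scale, where RMA leaves a positive value for every probe set. The part of these cell types in the differences of the transport genes was not tested, and fewer cells of a type cannot be told apart from less RNA per cell in such tissue.

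Other transporters and the regulators of transport gave a similar account. Of 16 transport partners 4 were measured (SLC9A3, SLC4A2, SLC4A4 and CFTR) and 0 had an unadjusted p under 0.05. SLC4A4, the basolateral bicarbonate exporter of proximal tubule, read 707, 59.5 and 779 in CPB, against 55.0, 416 and 184 in Sham (0.99, SE 1.21), the order of CLCN5 and the proximal tubule markers. SLC9A3, the apical sodium and proton exchanger, differed by 0.094 (SE 0.15). Of 14 regulators 8 were measured, again with 0 below an unadjusted p of 0.05. PRKACA, the catalytic subunit of the kinase that carries the vasopressin signal, read 166, 264 and 163 in CPB, against 177, 166 and 149 in Sham (0.23, SE 0.22). PTH1R, the parathyroid hormone receptor, read 1277, 276 and 1053 in CPB, against 216, 1282 and 310.4 in Sham (0.70, SE 0.86), low in CPB 2 and Sham 1 as LRP2 was.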

How the data were processed

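Renal medulla of 3 CPB and 3 Sham pigs was measured on 1 Affymetrix porcine array each. The authors scanned the arrays in GCOS and normalised them with RMA in ArrayStar (background correction, quantile normalization, median polish), and deposited linear intensity values for 24123 probe sets. Raw files were not analysed here, so signal over background is unknown. Quantile normalization gives all arrays nearly the same distribution (median intensity 94.6 to 96.9), and the number of arrays limits the precision.

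The 124 control probe sets were left out, log2 was taken, and CPB was compared with Sham with limma 3.58.1 (lmFit, eBayes) in R 4.3.3, with Benjamini-Hochberg adjustment over all 23999 probe sets. The methods' test was Student's t-test, run here as an alternative with equal variances. It put 30 probe sets on log2 and 26 on linear values at the threshold, fewer than the study reported, so the study's calls were not reproduced. The fit was checked on simulated data.

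The annotation lists 10297 probe sets, 10099 with 1 symbol and 198 with several, and 13826 are unnamed here. Of the 125 members, 116 had a gene identifier in a current gene table, all with the same symbol.

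Members, lists, tests and the pairings of pigs for the correlations were chosen with earlier results of these data known. Members named are those below an unadjusted p of 0.05, in each family the 2 genes with the smallest p, the 2 with the largest SD and the brightest, and all genes of the segment lists. From the transport partner, regulator and tight junction lists the 2 genes with the smallest p were named, and no marker genes by rule. Named outside this rule, after their values were seen, were the members without overlap between groups, second probe sets, AQP8 and OCLN. Marker genes named so were LRP2, UPK1A, UPK2, UPK3A, EGF, PECAM1, KDR and MYLK. Alternatives were 2 forms of the t-test, an intensity trend with a robust prior, a second quantile normalization, median centring, no dim probe sets, 1 probe set per gene, no _s_at or _x_at probe sets, other fold minimums, the replicate number as a block and each array left out.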

Additional observations from a re-analysis of the deposited data

How the results depend on the processing

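At the study's threshold the members stayed at 0 under both t-tests, the other prior, a second quantile normalization, median centring, no dim probe sets, no _s_at or _x_at probe sets, 1 probe set per gene and fold minimums of 1.5 and 2, and leaving out 1 array gave 0 to 5. The count of 3 at an unadjusted p under 0.05 became 0 without the dimmest 25% of probe sets, of which KCNJ2 is one, and 0 to 21 with 1 array left out. Groups without overlap were 8 members, or 4 with 1 probe set per gene. The claudin median, over genes with 1 probe set each, was -0.21, or -0.11 without CLDND1. Both of these alternatives were added after the data had been seen. Replicate numbers do not pair the pigs (correlations of deviations -0.39, -0.68 and -0.016), and with the number as a block 1 member was below an unadjusted p of 0.05 and 0 at the threshold. The median difference of the members stayed between 0.045 and 0.14. Of the 58 other named probe sets, 24 changed sign under at least 1 alternative, in 51 of 806 values. The medians of the sodium pump, FXYD, TRP, aquaporin and carbonic anhydrase families changed sign with 1 array left out, and no family median did under either scaling alternative. Signal over background per probe is unknown, so dim probe sets carry the least weight.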
